A study of Caenorhabditis elegans with 2 samples.

Results

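The genes described here encode the vacuolar proton pump, the autophagy machinery and 4 proteins of the lysosome membrane of the nematode Caenorhabditis elegans. They were chosen by a rule on names, with earlier results of these data known. It takes every identifier of the count table whose WormBase symbol is vha, atg, lgg or epg with a number, and bec-1, unc-51, vps-34, sqst-1, lmp-1, lmp-2, cup-5 and laat-1. The rule found 51 genes among 46748 identifiers, of which 20 are vha genes, 27 are autophagy genes and 4 are lysosome membrane genes. RNA came from whole wild-type hermaphrodites (N2 in the sample titles) aged 5 days and kept on heat-inactivated OP50, the Escherichia coli strain used as laboratory food. Both libraries belong to this 1 group, so the series holds no contrast between conditions. The labels do not say whether each library had its own culture, and p-values between them may therefore measure technical spread.

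The vacuolar ATPase moves protons into lysosomes and other compartments, and in the worm also across the surface of gut, epidermal and excretory cells. Its V1 domain faces the cytosol and splits ATP, and its V0 domain sits in the membrane and carries the protons. Autophagy wraps cytoplasm in a double membrane: a kinase complex starts the process, a lipid kinase complex marks the site, transfer proteins supply lipid, and a conjugation system attaches ubiquitin-like proteins of the Atg8 family to the membrane before it fuses with the lysosome.

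Replicate 1 held 28164638 counts and replicate 2 held 31271070 counts, and 12268 of 19641 protein-coding genes (62.5%) were detected, that is, had at least 10 counts in both libraries. Of 23 markers of the tissues of a hermaphrodite, 22 were detected, among them those of intestine, germline, muscle, epidermis, neurons and excretory cell. The exception was the sperm gene spe-11 (4 and 6 counts in replicates 1 and 2), and the other sperm marker, spe-9, had 18 and 13 counts.

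All 51 genes were detected. Their levels are given as counts scaled to the library's own total (CPM), divided by the summed exon length in kilobases, here called CPM per kb. Where a single value is printed it is the mean of both libraries with their SD (n = 2). The 51 genes together held 155992 and 174780 counts, which is 0.554% (95% Wilson interval 0.551 to 0.557) of replicate 1 and 0.559% (0.556 to 0.562) of replicate 2. Their median level was 53.2 CPM per kb in replicate 1 and 52.2 in replicate 2, against 11.3 and 11.6 for all detected protein-coding genes. The level of 46 of the 51 genes lay above that of the median detected protein-coding gene, and 15 (29.4%) lay among the highest 10% of such genes.

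The proton pump genes sat highest. The 20 vha genes had a median of 108.5 ± 1.08 CPM per kb, the 27 autophagy genes one of 31.9 ± 0.173, and the 4 lysosome membrane genes one of 57.1 ± 0.814. All 20 vha genes, 23 of 27 autophagy genes and 3 of 4 lysosome membrane genes lay above the median detected protein-coding gene. Among the highest 10% were 11 vha genes (55.0%), 3 autophagy genes (11.1%) and 1 lysosome membrane gene. The order of the 3 medians was the same in both libraries. The vha median depends on the length used: divided by coding length it was 169 CPM per kb.

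**Figure D1:**
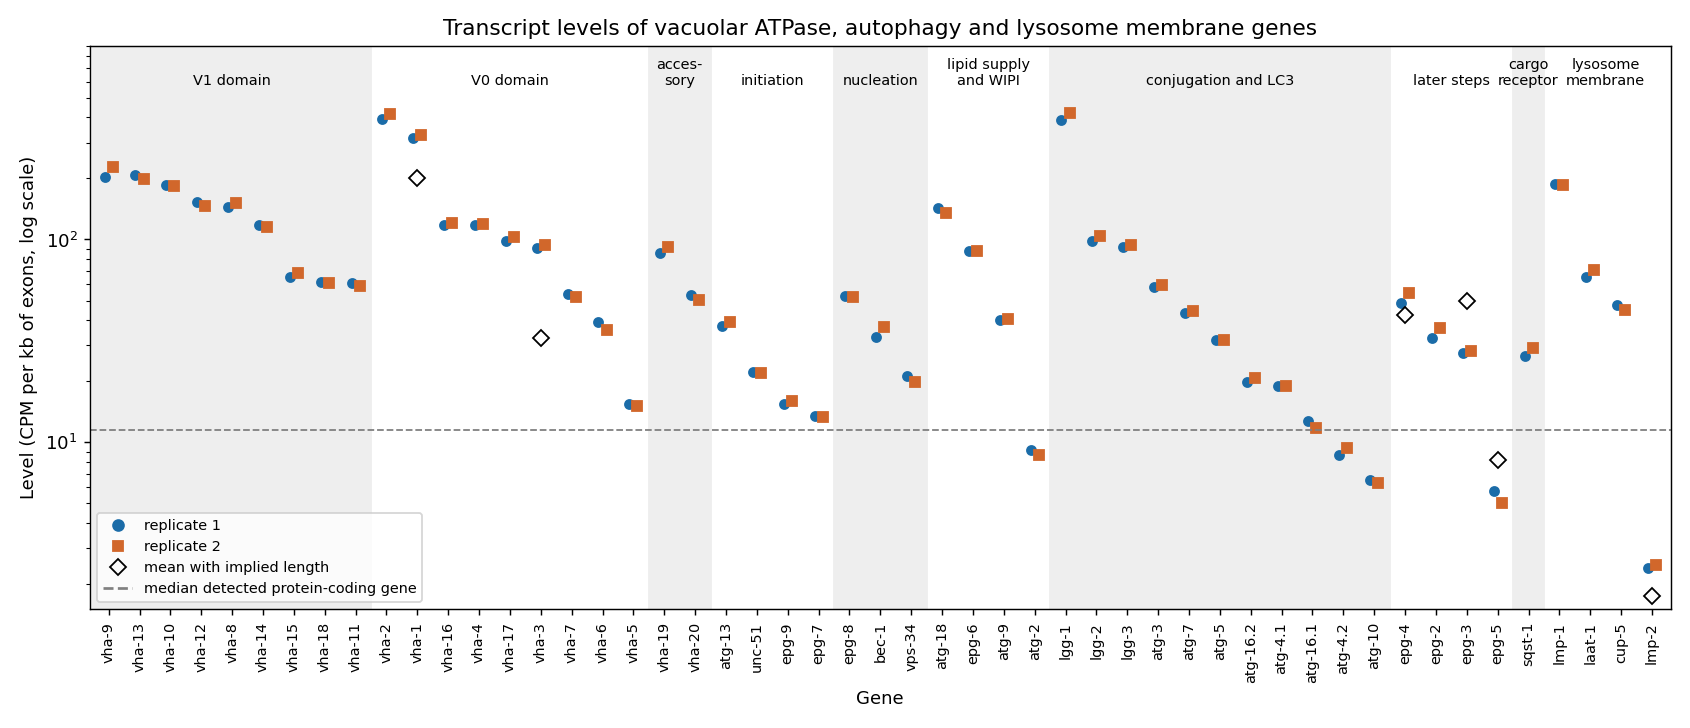
Level of each of the 51 genes in CPM per kb of exons (log axis), in replicate 1 (circles) and replicate 2 (squares), ordered by role. Diamonds give the mean level of the 6 genes whose length implied by the deposited RPKM differed by over 20% from the annotated exons, and the dashed line is the median detected protein-coding gene. The libraries nearly coincide for every gene, all vha genes lie above the dashed line, and lmp-2 is lowest at 2.399 and 2.482.

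The 9 genes of the V1 domain spanned a narrow range, from 60.1 to 215 CPM per kb, with a median of 145.6 ± 1.46. The highest was vha-9 (WBGene00006918, chromosome II, 10303050 to 10303713 in WBcel235), which encodes the F subunit of the central stalk, at 203 CPM per kb in replicate 1 and 227 in replicate 2. Next came vha-13 (WBGene00013025, chromosome V, 14351709 to 14354422), the catalytic A subunit, at 208 and 199. Their ranges overlapped, so levels per kb of exons do not order these 2 genes. The G subunit gene vha-10 followed at 185 and 183 CPM per kb. This order depends on the length used. Per kb of coding length, vha-9 (289.5 and 324.4) lay above vha-13 (267.3 and 255.9) and overlapped with vha-10 (314.7 and 312.3). The lowest per kb of exons was vha-11 (WBGene00006920, chromosome IV, 2307815 to 2314567), the C subunit that joins V1 to V0, at 61.0 and 59.2.

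Within V1, the A, B, E and G subunits are present in several copies per pump and the C, D, F and H subunits in a single copy. The 4 genes of the first kind (vha-13, vha-12, vha-8 and vha-10) lay between 148 and 204 CPM per kb, with a median of 168 ± 1.29. The 5 genes of the second kind had a median of 66.8 ± 2.35. Of these, 2 (vha-15 and vha-18) encode the same H subunit, with a summed level of 128 ± 1.89 CPM per kb. The median is over genes, so it enters that subunit by each gene and not by its sum. The ranges of the kinds were not separate. Per kb of exons, the F subunit gene vha-9 exceeded vha-10, vha-12 and vha-8 in both libraries and overlapped with vha-13. Per kb of coding length, vha-9 exceeded vha-13, vha-12 and vha-8 in both libraries and overlapped with vha-10. The D subunit gene vha-14 (117.7 and 115.2 CPM per kb), the C subunit gene and both H subunit genes lay below the 4 genes of the first kind.

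Levels within the 9 genes of the V0 domain were more spread out, from 15.2 to 405 CPM per kb, with a median of 101 ± 3.58, or 167 per kb of coding length. The proton-carrying ring is built from c subunits, encoded by vha-1, vha-2 and vha-3, with c'' from vha-4. The gene vha-2 (WBGene00006911, chromosome III, 9782164 to 9783224) was at 393 CPM per kb in replicate 1 and 416 in replicate 2, which with lgg-1 was one of the 2 highest levels among the 51. Its neighbour vha-1 (WBGene00006910, chromosome III, 9781254 to 9781763) was at 316 and 328. The remaining c subunit gene, vha-3 (WBGene00006912, chromosome IV, 2315460 to 2315945), was at 91.3 and 94.4. The ranges of these 3 genes over the libraries did not overlap, with vha-2 highest and vha-3 lowest in both.

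How far apart the c subunit genes lie rests on their length. The deposited RPKM and counts imply lengths of 815 bases for vha-1 and 1375 for vha-3, where the annotation used here has 510 and 486. Those annotated exons hold little beside the coding sequence, which is 507 and 483 bases long. For vha-2 the exons sum to 964 bases and the coding sequence to 483. Levels of vha-1 and vha-3 per kb of exons are thus nearly levels per kb of coding length, unlike that of vha-2. With the implied lengths vha-1 was at 201 ± 5.47 CPM per kb and vha-3 at 32.8 ± 0.777, and vha-2 exceeded vha-1 by 2.02-fold ± 0.0258 in place of 1.26-fold ± 0.0161. The ratio of vha-2 to vha-3 was 12.4 ± 0.202 with implied and 4.36 ± 0.0710 with annotated lengths. VHA-2 and VHA-3 are known to share the same amino acid sequence, so reads that match both genes may have been split or dropped, and these ratios are uncertain for that reason too. Of the exon length of vha-2, 22.7% is shared with R10E11.6 on the same strand.

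The a subunit, the large V0 protein that lines the proton path and sets where in the cell or animal a pump works, has 4 genes in the worm. Of these unc-32, known for its role in neurons and not named vha, was highest at 78.4 and 73.8 CPM per kb. It was followed by vha-7, known from epidermis, at 53.8 and 52.0. The gut form vha-6, placed on the apical face of the intestine, was at 39.3 and 35.9. The lowest was vha-5, the form of the excretory canal and epidermis, at 15.4 and 15.02, which was also the lowest of all vha genes. The ranges of the 4 genes over the libraries did not overlap, and their order was the same in both. They made up 41.9% ± 0.137, 29.1% ± 0.442, 20.7% ± 0.489 and 8.37% ± 0.184 of their summed level. In whole animals, fewer cells of a type and less RNA per cell cannot be told apart.

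The remaining V0 genes lay close together per kb of exons. The d subunit gene vha-16 was at 117 and 120 CPM per kb, the c'' gene vha-4 at 118 and 120, and vha-17, which encodes the small e subunit, at 98.3 and 103.4. The first 2 overlapped and were not ordered by levels per kb of exons. Per kb of coding length these genes no longer overlapped. There vha-17 (211.1 and 222.0) was highest, followed by vha-4 (179.2 and 182.8) and vha-16 (165.0 and 169.3). The H subunit of V1, which regulates the pump, also has a pair of genes. Here vha-15 was at 65.1 and 68.4 CPM per kb and vha-18 at 61.8 and 61.2. The ratio of vha-15 to vha-18 was 1.09 ± 0.0464, a small gap, although the ranges did not overlap.

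Of the accessory genes, vha-19, the homologue of the mammalian Ac45 protein, was at 85.6 and 91.4 CPM per kb. The homologue of the mammalian prorenin receptor, vha-20, was lower at 53.2 and 50.5.

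**Figure D2:**
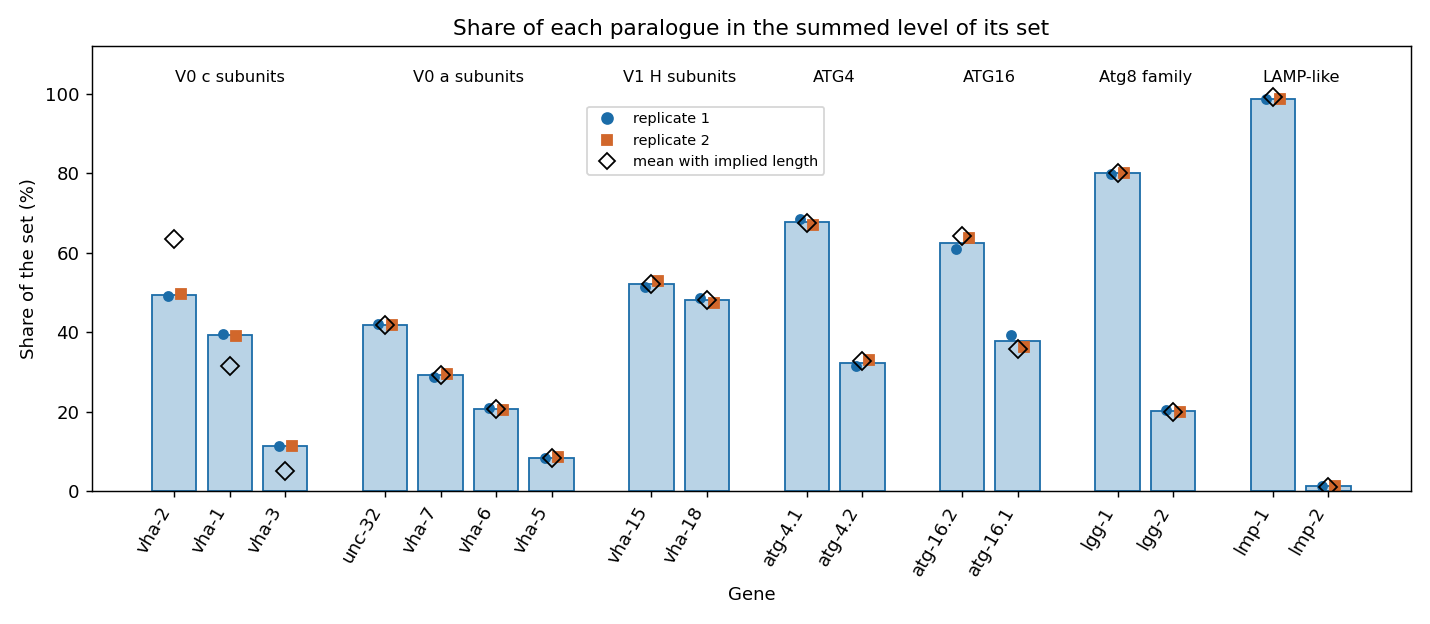
Share (%) of each paralogue in the summed level (CPM per kb of exons) of its set; bars are means of the 2 libraries, circles replicate 1, squares replicate 2, and diamonds the mean share with the lengths implied by the deposited RPKM. The H subunit genes are near equal, lmp-1 holds 98.7% of its set, and the diamonds leave the bars mainly among the c subunits.

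Autophagy genes of the starting steps were modest in level. The 4 genes of the initiation complex ranged from 13.4 to 38.3 CPM per kb. The highest was atg-13 (37.5 and 39.1), the regulatory partner of the kinase, although 9.04% of its exon length is shared with D2007.1 on the other strand. The kinase gene unc-51 (WBGene00006786, chromosome V, 19995986 to 20004485), homologue of mammalian ULK1, was at 22.2 and 21.9. The ATG101 homologue epg-9 was at 15.4 and 15.9, and the FIP200 homologue epg-7, a scaffold, was lowest at 13.5 and 13.4. All 4 lay above the median detected protein-coding gene and none among the highest 10%.

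In the lipid kinase complex that marks the site, epg-8, the ATG14 homologue, was highest at 52.7 and 52.2 CPM per kb. The Beclin 1 homologue bec-1 (chromosome IV, 5661141 to 5664425) was at 33.2 and 36.98, and the lipid kinase gene vps-34 at 21.2 and 19.9. The ranges of these 3 genes did not overlap. Their partner vps-15, which anchors the kinase and falls outside the naming rule, was at 42.7 and 41.6.

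Among genes of lipid supply, those for the phosphoinositide-binding propeller proteins (WIPI family) were highest. The gene atg-18 (WBGene00018294, chromosome V, 8629174 to 8631327) was at 142 CPM per kb in replicate 1 and 135 in replicate 2, and epg-6 was at 87.8 and 87.6. The homologue of the mammalian scramblase ATG9, atg-9, was at 39.9 and 40.4. The lipid transfer gene atg-2, which has the longest exon sum of the 51 at 7547 bases, was at 9.12 and 8.63, below the median detected protein-coding gene. Levels within this step thus ran over a range from 8.88 to 138.5.

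The conjugation system held both 1 of the 2 highest and some of the lowest genes. The gene lgg-1 (WBGene00002980, chromosome II, 6346960 to 6347719), the GABARAP-type Atg8 protein that coats the autophagosome, was at 388 CPM per kb in replicate 1 and 419 in replicate 2. It overlapped with vha-2, so the data do not say which of these is higher. The LC3-type gene lgg-2 was at 98.7 and 104, and lgg-1 exceeded it 3.98-fold ± 0.0662. The gene lgg-3 encodes the ATG12 homologue, a ubiquitin-like protein joined to ATG-5, and was at 91.7 and 94.1.

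The genes for the enzymes that process and attach these proteins, and atg-5, lay below the lgg genes. The E2-like gene atg-3 was at 58.4 and 59.4 CPM per kb, the E1-like gene atg-7 at 43.6 and 44.6, and atg-5 at 32.1 and 31.8. The lowest of the step was atg-10, the E2-like enzyme of the ATG12 branch, with 97 and 103 counts, or 6.55 and 6.26 CPM per kb. Its counting error is 10.2% and 9.85% of these values, so it is among the least precise of the 51.

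The pairs of paralogues in this step were unequal. The protease gene atg-4.1, which trims the Atg8 proteins, was at 18.9 ± 0.105 CPM per kb and atg-4.2 at 8.67 and 9.39. The ratio was 2.10 ± 0.107, and 6.20% of the exon length of atg-4.1 is shared with Y87G2A.2 on the other strand. The gene atg-16.2, a scaffold of the conjugation complex, was at 19.8 and 20.8 and atg-16.1 at 12.8 and 11.8, a ratio of 1.66 ± 0.149. Within each pair the ranges over the libraries did not overlap.

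The epg genes of later steps ranged from 5.38 to 51.5 CPM per kb. The EI24 homologue epg-4, of the endoplasmic reticulum, was at 48.5 and 54.3, or 42.4 ± 3.38 with its implied length of 1564 bases against 1288 annotated. The gene epg-2 encodes a nematode coiled-coil protein that brings germ granule aggregates to the autophagy machinery, and was at 32.7 and 36.4. The VMP1 homologue epg-3 was at 27.4 and 28.0, but its implied length of 1676 bases, against 3015 annotated, gives 49.9 ± 0.768, so that the order of epg-3 and epg-4 turns with the lengths. The tethering gene epg-5, needed for fusion with lysosomes, was lowest at 5.72 and 5.04. Its implied length of 4800 bases, against 7291 annotated, gives 8.18 ± 0.728, which is also below the median detected protein-coding gene. The cargo receptor gene sqst-1, homologue of mammalian p62, was at 26.6 and 29.1.

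Of the lysosome membrane genes, lmp-1 (WBGene00003053, chromosome X, 6376459 to 6377684), which encodes a LAMP-type glycoprotein, was highest at 187 and 186 CPM per kb. Its relative lmp-2 was the lowest of all 51 genes, with 74 and 85 counts, or 2.399 and 2.482 CPM per kb. The ratio of lmp-1 to lmp-2 was 76.4 ± 2.02, and 106 ± 2.82 with the implied length of lmp-2. The exporter of lysine and arginine, laat-1, was at 65.4 and 70.5, and the TRPML1 channel homologue cup-5 at 47.6 and 44.8.

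Across the 51 genes, levels ran over a 166-fold range, and many neighbours in rank could not be separated. Of the 50 pairs of neighbours in that order, 29 had ranges over the libraries that did not overlap. With 2 values per gene this does not establish their order, which was not tested. The length used moved some genes further, such as epg-3, at 27.8 with annotated and 49.9 with implied length. The 21 pairs with overlapping ranges included vha-2 and lgg-1, vha-9 and vha-13, vha-12 and vha-8, and the run of vha-7, epg-8, vha-20 and epg-4.

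Genes of the same pathways that the naming rule leaves out covered a wider range. From a list of 36, 34 were detected, with a median of 36.4 ± 0.897 CPM per kb, and 26 of the 34 lay above the median detected protein-coding gene. The highest was pgl-3 (153 and 154), a germ granule protein gene and autophagy cargo, and sepa-1, whose product is the receptor for such cargo, was at 13.97 and 14.87. The gene hlh-30, homologue of the mammalian transcription factor TFEB that drives lysosome and autophagy genes, was at 11.67 and 10.97, near the median detected protein-coding gene. The lowest detected was the sterol transporter gene ncr-2, with 22 and 29 counts (0.198 and 0.235 CPM per kb). The sqst-1 relatives sqst-3 (6 and 5 counts) and sqst-4 (1 and 0 counts) were not detected.

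Proteasome and protease genes had higher medians than the genes described here, and Rab and Arf genes one close to that of the 51. The 33 proteasome subunit genes had a median of 219 ± 2.03 CPM per kb and 32 of them (97.0%) lay among the highest 10%, whereas 11 of 20 vha genes did. Rab and Arf genes, which direct vesicle traffic, had 21 of 23 detected at a median of 53.0 ± 3.05. The 15 cathepsin-type protease genes found in the table had a median of 462 ± 15.96. That is above each of the 51 genes per kb of exons, but per kb of coding length the protease median of 508 lies below vha-2 (785 and 831) and lgg-1 (745 and 804). They ran from cpr-2 (0.767 and 0.480) to cpr-1 (840 and 901). These are descriptions of the lists in these libraries, and no difference between lists was tested.

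**Figure D3:**
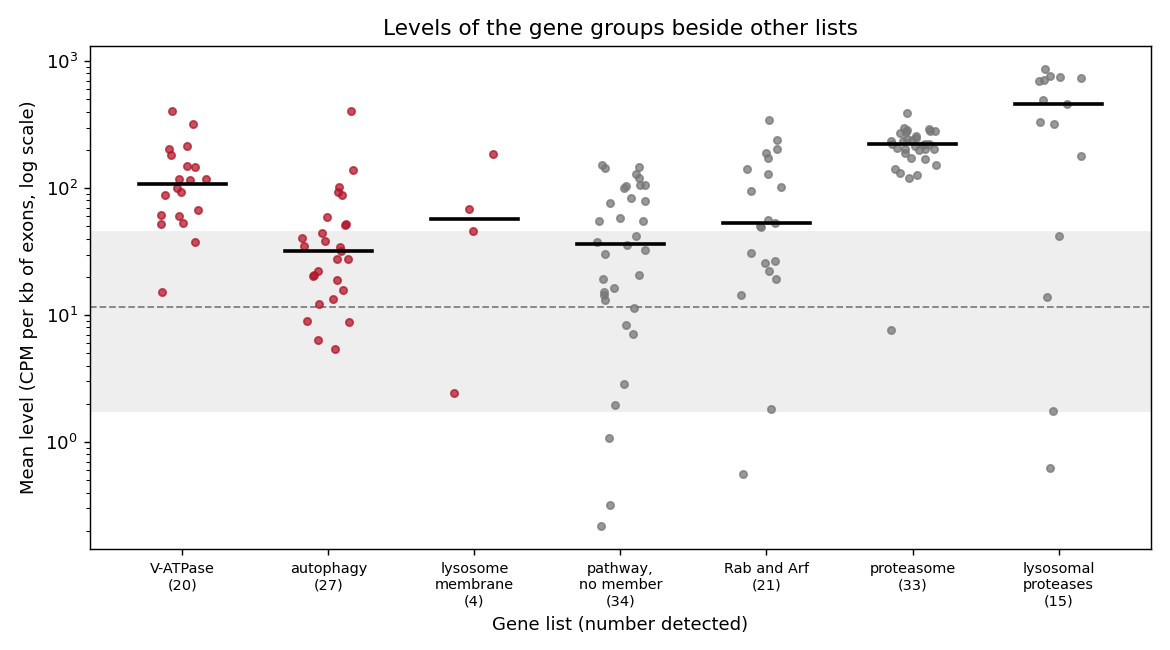
Mean level (CPM per kb of exons, log axis) of the detected genes in the V-ATPase, autophagy and lysosome membrane groups (red) and in comparison lists (grey); black bars are medians, the dashed line and grey band are the median and interquartile range of detected protein-coding genes. The V-ATPase median of 108.5 lies between the Rab and Arf median of 53.0 and the proteasome median of 219.

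Between the libraries, the 51 genes differed by 1.14-fold at most. None passed the threshold of an adjusted p under 0.05 with at least a 2-fold difference, while 0.827% of the 14397 genes tested did (two-sided exact binomial test at TMM library sizes, Benjamini-Hochberg adjustment). With so small a share over all genes, the absence of calls among 51 genes says little about them. When only the 9977 genes with at least 100 summed counts were tested, 31 passed. The lowest sum among the 51 genes was 159. At an unadjusted p under 0.05 there were 17 of the 51, a larger share than the 3055 of all 14397 genes tested (21.2%). That background is not matched for counts. All 51 lay within 1.2-fold, as did 91.0% of the 8791 genes with summed counts in the same range. The widest differences were those of epg-5 (1.14-fold higher in replicate 1; adjusted p = 0.0184 by the exact binomial test), vha-9 (1.11-fold higher in replicate 2; adjusted p = 0.000283) and epg-4 (1.11-fold higher in replicate 2; adjusted p = 0.0101).

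With no limit on the fold, 12 of the 51 (23.5%) had an adjusted p under 0.05, against 11.6% of all genes tested and 15.2% of those with summed counts in the same range. More genes of the whole table thus differed than counting noise gives, and the libraries were kept as 2 samples. Of the 12 genes, 6 were higher in replicate 2 (background 6.62%), namely vha-2, vha-9, vha-19, lgg-1, epg-2 and epg-4, and 6 in replicate 1 (background 4.95%), namely vha-6, vha-12, vha-13, atg-18, epg-5 and cup-5. The binomial test knows no noise but that of counting, and it sets library against library, not condition against condition. With edgeR's exact test and the common biological coefficient of variation of 0.0547, estimated from both libraries as 1 group, none of the 51 had an adjusted p under 0.05, beside 0.674% of all genes tested. That dispersion comes from the same differences that are tested.

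**Figure D4:**
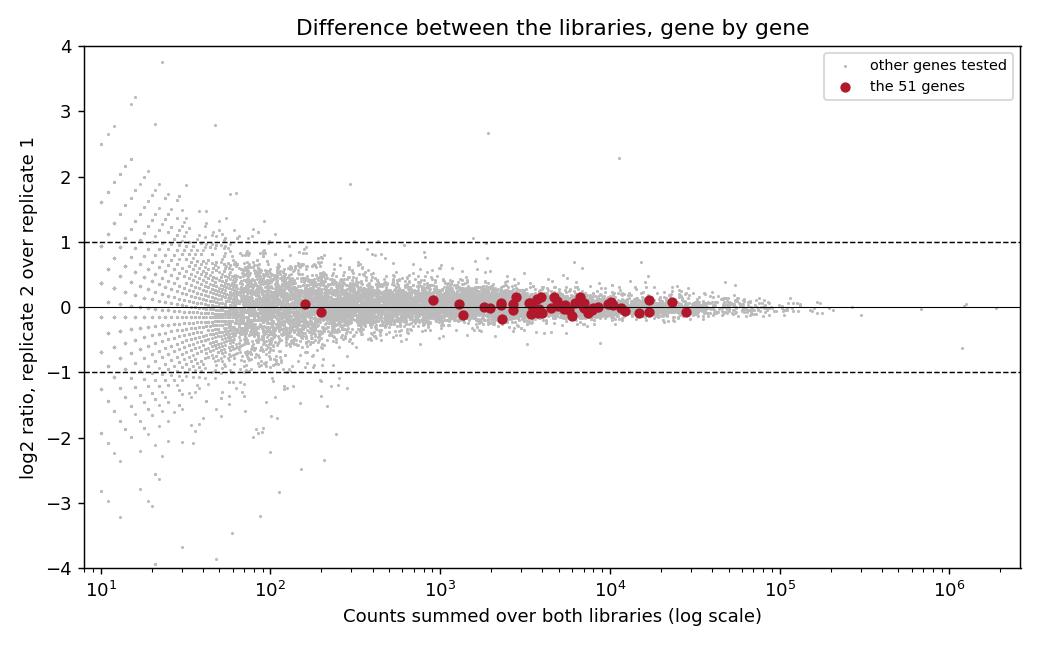
Log2 ratio of replicate 2 over replicate 1 against the counts summed over both libraries (log axis) for all 14397 genes tested (grey) and the 51 genes (red); dashed lines mark a 2-fold difference, and 10 genes lie beyond the plotted range. All 51 genes stay within 1.2-fold of equality.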

How the data were processed

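Libraries made with an Illumina mRNA kit from total RNA of 2 samples of whole worms were analysed, per the labels' protocols. Per the submitters' processing notes, STAR 2.4.1d, featureCounts 1.4.6-p4 and the build WBcel235 were used; the sources used here give no strand setting, counting options or annotation release, so reads of overlapping genes on either strand cannot be told apart. The authors deposited raw counts per gene and RPKM. In the deposited RPKM the read total used changed from row to row in a cycle of 8 (ratio of totals 0.787 to 1.27 between libraries). RPKM therefore served only as an alternative and to derive implied lengths. For these lengths, counts were divided by RPKM and by the total estimated for each row class.

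Levels were computed as CPM divided by the union of exons in Ensembl release 115 (WBcel235), by Python 3.11.15. Of the 46748 identifiers, 46449 were in that release. For 38 of 51 genes the implied length lay within 5% of it, and for 6 it was over 20% off. For counts, the floor of 3 counts is 0.107 and 0.0959 CPM, and intervals and floors cover counting error only. Each gene whose summed counts reached 10 was compared between libraries with exact binomial tests in R 4.3.3 (edgeR 4.0.16 TMM sizes, 0.5 added to counts for ratios, DESeq2 1.42.0 size factors as an alternative). The code was checked on simulated counts with counting noise alone, which the test assumes. That check therefore does not cover further spread between the libraries. The members and lists were chosen with earlier results of these data known. Values were named for the 3 highest and the lowest genes of each role, all paralogues, and the widest differences between libraries; other genes of a role, and vps-15, sepa-1 and let-70, were named after values were seen. Promoter sequences were not analysed here.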

Additional observations from a re-analysis of the deposited data

How the results depend on the processing

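The median level of the 51 genes was 52.7 CPM per kb. It was 63.9 with coding length, 51.5 with the lengths implied by the deposited counts and RPKM, 54.1 when scaled to protein-coding counts, 53.98 with deposited RPKM as they stand and 54.1 for genes with at least 100 counts in both libraries. Leaving out 1 replicate gave 52.2 to 53.2. The share of counts of 0.556% was 0.571% of protein-coding counts and 0.554% to 0.559% with 1 replicate left out. At least 100 counts in both libraries were held by 49 of the 51 genes. The count of 0 genes called stayed 0 with DESeq2 size factors, library totals, other filters on low counts and edgeR's exact test. These settings could not change it, since the largest fold among the 51 genes was 1.13 to 1.14 in each. Without the limit on the fold the count was 12, 11 to 13 with other sizes and filters, and 0 with edgeR's exact test. Over 15 pairs of paralogues, none of 75 alternative values changed direction. Those with 1 replicate left out could not, since the ranges of the genes in each pair did not overlap. Several pairs share genes, so the values are not independent. Values with implied lengths or 1 replicate left out were added after seeing the data. The highest mean was that of vha-2 (405, or 808 with coding length), and without replicate 1 lgg-1 (419) was highest. No paired analysis was possible because the series has 1 group. With 2 libraries, the SD of each value is itself imprecise.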

Other observations

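Position was examined for what the naming rule did not use. The 51 genes lay on all 6 chromosomes, with 14 on chromosome IV and 5 on chromosome V. In 2 places members were direct neighbours on the same strand: vha-2 begins 400 bases after vha-1, and vha-11 begins 892 bases after vha-3. These gaps rest on the annotated gene ends. The implied lengths of vha-1 and vha-3 (815 and 1375 bases) exceed the annotated ones (510 and 486). In the first pair the downstream gene had the higher level (393 and 416 against 316 and 328 CPM per kb). In the second the upstream gene did (91.3 and 94.4 for vha-3 against 61.0 and 59.2 for vha-11), and with the implied length of vha-3 the order turned, at 32.8 CPM per kb for vha-3. A protein-coding gene on the same strand ended within 500 bases upstream of 12 of the 51 genes (23.5%) and of 21.7% of detected protein-coding genes. The ubiquitin-conjugating enzyme gene let-70 lies 30 bases upstream of atg-7 and was at 583 and 597 CPM per kb, against 43.6 and 44.6 for atg-7.

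The vha genes had a median exon sum of 1348 bases and 4 exons, and the autophagy genes one of 1696 bases and 6 exons, beside 1447 bases and 6 exons over detected protein-coding genes. Exons shared with another annotated gene made up over 5% of the length in 5 of the 51 genes, and 38 shared none.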
